A study of Arabidopsis thaliana and Brassica rapa with 28 samples.

Results

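The genes described here are 200 genes of Brassica rapa whose transcript levels were far lower in peels of the hypocotyl epidermis than in whole hypocotyls, in white light (W) and in shade. They were chosen by their measured levels. A gene needed an FPKM (fragments scaled to transcript length and library size) of at least 1 in peels and at least 5 in whole hypocotyls in both lights. The score of a gene was the smaller of its log2(whole/peel) in W and in shade, and the 200 highest scores were taken. Of 40481 genes with a Brara identifier, 17424 passed the FPKM minimums, and the 200 are 1.15% of those.

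The 12 Brassica libraries form 4 groups of 3 libraries each, all from wild-type plants of the strain FPsc at 4 d of age. Whole hypocotyls or hypocotyl epidermal peels were taken from plants kept in W, or from plants moved to shade (light poor in red relative to far-red) for 9 h. No transgene or mutation separates the groups. The sources used here do not say how the peels were cut, how many plants went into a library, or whether the libraries of a group are separate cultures, so any p-value covers only the variation among the libraries sequenced. Each gene has 1 FPKM per group, pooled by the authors over the group's libraries, and therefore no spread between libraries and no depth can be given. The 10 most abundant genes held 24.6% of the summed FPKM in whole hypocotyls in W, 39.0% in whole hypocotyls in shade, 35.8% in peels in W and 32.7% in peels in shade. The median log2(whole/peel) of the passing genes was 0.08 in W and 0.08 in shade.

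The hypocotyl is the stem-like axis below the cotyledons. Its outer layer, the epidermis, surrounds cortex cells, an endodermis and a central vascular cylinder with xylem, which carries water, and phloem, which carries sugars. A peel removes the outer layer, so a transcript made mainly in the inner tissues is expected to be scarce in it. Such shade is sensed by phytochromes and speeds hypocotyl elongation through auxin and other growth hormones. The deposited tables give Brara identifiers without gene names or Arabidopsis counterparts. The cell types of the 200 genes could therefore not be checked against markers, and no function is given for any of them. In bulk tissue, fewer cells of a type and less RNA per cell cannot be told apart.

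In whole hypocotyls the 200 genes were well expressed. Their FPKM in W ran from 11.9 to 4807 with a median of 57.3, and in shade from 8.04 to 3242 with a median of 39.6. In peels their FPKM ran from 1.01 to 65.5 in W, with a median of 2.81, and from 1.01 to 105 in shade, with a median of 2.79. All genes past the FPKM minimums had medians of 20.8 and 20.7 in whole hypocotyls in W and in shade and of 20.5 in peels in shade, so the 200 genes stood above the typical gene in whole hypocotyls and below it in peels. In peels 67 of the 200 were under an FPKM of 2 in W and 65 in shade, close to the minimum of 1. Together the 200 genes held 1.79% of the summed FPKM in whole hypocotyls in W, 0.925% in whole hypocotyls in shade, 0.0532% in peels in W and 0.0597% in peels in shade. These shares move with the most abundant genes of each group. Without the most abundant of the 200 they were 1.502% and 0.783% in whole hypocotyls in W and in shade.

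**Figure D1:**
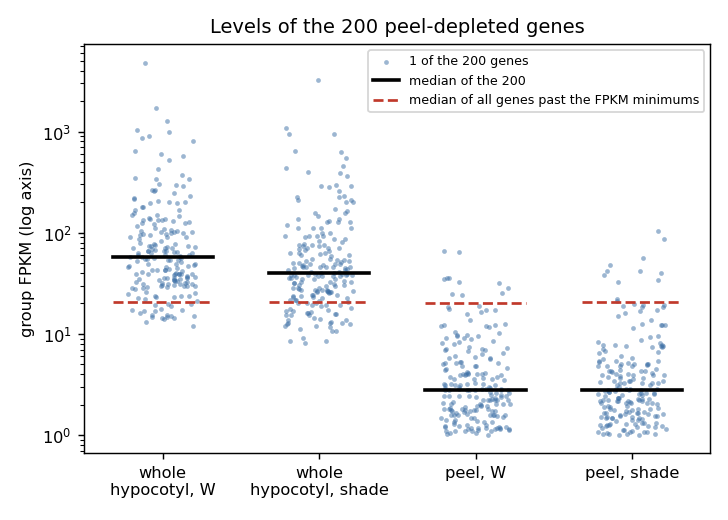
Group FPKM (log axis) of each of the 200 genes in the 4 Brassica groups; black lines are their medians and dashed red lines the medians of all genes past the FPKM minimums. The medians of the 200 are 57.3 and 39.6 in whole hypocotyls and 2.81 and 2.79 in peels.

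The ratios of whole hypocotyl to peel that chose the genes are given as a description. In W the ratio ran from 7.19 to 271 with a median of 18.2, and in shade from 7.16 to 260 with a median of 12.1. Ratios of at least 32 were found for 53 genes in W and for 15 in shade. The highest score belonged to Brara.H02309, on chromosome A08 from 19873905 to 19875308. Its FPKM was 214 in whole hypocotyls in W, 224 in whole hypocotyls in shade, 2.81 in peels in W and 1.71 in peels in shade. Both peel groups were more than an order of magnitude under both whole-hypocotyl groups, and the ratios were 76.2 in W and 131 in shade. The second highest score belonged to Brara.E00862, on chromosome A05 from 5002681 to 5003941, which was also the most abundant of the 200 in whole hypocotyls. Its FPKM was 4807 in whole hypocotyls in W and 3242 in whole hypocotyls in shade, against 64.8 in peels in W and 12.5 in peels in shade. Its ratios were 74.2 in W and 260 in shade. The positions count from 1 on the authors' Brassica assembly, which the sources used here do not name, and span the locus listed for the gene.

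The authors' deposited tables called 190 of the 196 tested members lower in peels in W and 193 of 196 in shade, where called means a q under 0.05 among the genes marked as tested. Over all tested genes, 19.0% were called lower in peels in W and 18.0% in shade. Since these ratios chose the genes, nothing is read from those counts. The other 4 members carry the status LOWDATA in all 4 tables and were not tested.

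The limit of the list lies in a dense part of the ranking. The last gene inside had a score of 2.839, with 15.0 and 8.04 FPKM in whole hypocotyls in W and in shade and 1.85 and 1.12 FPKM in peels. The first gene outside had a score of 2.838, with 92.0 and 46.9 FPKM in whole hypocotyls and 3.03 and 6.56 FPKM in peels. The minimum of 1 FPKM in peels also keeps out many depleted genes. Of 18059 genes with at least 5 FPKM in whole hypocotyls in both lights, 635 were under 1 FPKM in peels in at least 1 light, and 51 of these were listed at 0 in peels in at least 1 light. Of the 584 with peel values above 0 in both lights, 449 had a score at or above that of the lowest member and 12 had one above the highest. The 200 genes are thus the most depleted among genes past the FPKM minimums, with at least 1 FPKM in peels in both lights, not the most depleted of all.

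**Figure D2:**
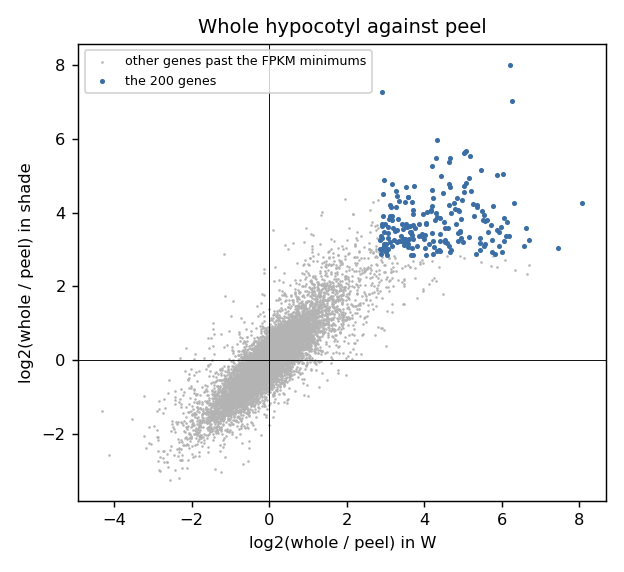
Log2 ratio of whole hypocotyl to peel in W (x axis) and in shade (y axis) for the 17424 genes past the FPKM minimums; the 200 genes with the highest smaller ratio are blue. Their log2 ratios start at 2.85 in W and at 2.84 in shade, and most lie further out along W.

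The ratio was larger in W than in shade for 129 of the 200 genes and larger in shade for 71, with a median difference of 0.31 on the log2 scale. It differed by no more than 1 on the log2 scale in 126 genes. In 60 genes it was larger in W by more than 1. These had a median log2(shade/W) of -0.75 in whole hypocotyls and 1.23 in peels, that is, lower levels in whole hypocotyls and higher levels in peels after shade. In 14 genes the ratio was larger in shade by more than 1, and these had median log2(shade/W) values of -0.38 in whole hypocotyls and -1.80 in peels. The groups of genes in this paragraph were split by the measured ratios, and these medians follow in part from that split.

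Shade was compared with W within each tissue to ask how the same genes respond to shade. The ranking used other contrasts, but it was made from the same 4 group values, so the calls below are not independent of the choice of genes and describe them. In whole hypocotyls 95 of the 196 tested members fell in shade (48.5%) and 24 rose (12.2%), and 77 were not called. Over all tested genes of that table, 20.0% were called lower and 17.6% higher. Among the genes past the FPKM minimums these shares were 19.5% and 23.2%. The median log2(shade/W) of the 200 genes was -0.39 in whole hypocotyls, with 146 genes below 0, while that of all passing genes was 0.05. With a minimum of 5 FPKM in peels in place of 1, the median of the resulting 200 genes was -0.075. The members that fell had a median log2 fold of -1.03, and 53 of them fell by more than 1 on the log2 scale. The members that rose had a median of 0.85, and 9 of them rose by more than 1.

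Among the members that fell in whole hypocotyls, Brara.F00190 on chromosome A06, from 1150676 to 1154194, fell furthest. Its FPKM was 136 in W and 10.7 in shade in whole hypocotyls, and 3.15 in W and 1.06 in shade in peels. Both tissues were lower in shade, and the peel value in shade lay just above the minimum. Its log2 fold was -3.68 ± 0.20 (standard error) in whole hypocotyls and -1.56 ± 0.45 in peels, with q = 0.000271 and q = 0.00838 in the authors' deposited tables. Brara.B03089, on chromosome A02 from 25807668 to 25808527, was the next. Its FPKM was 375 in W and 39.2 in shade in whole hypocotyls, and 9.82 in W and 2.06 in shade in peels. Its whole-hypocotyl level in shade stayed above its peel level in W. Its log2 fold was -3.26 ± 0.14 in whole hypocotyls and -2.25 ± 0.42 in peels, with q = 0.000271 and q = 0.00670 in the authors' deposited tables.

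Among the members that rose in whole hypocotyls, Brara.I03706 on chromosome A09, from 34341890 to 34345145, rose most. Its FPKM was 197 in W and 936 in shade in whole hypocotyls, and 25.4 in W and 105 in shade in peels. Levels in both tissues rose by a similar factor, 4.75-fold in whole hypocotyls and 4.14-fold in peels, so the ratio between tissues was 7.76 in W and 8.90 in shade. Its log2 folds were 2.25 ± 0.23 and 2.05 ± 0.21, and q was 0.000271 for each in the authors' deposited tables. Brara.I00669, on chromosome A09 from 3759514 to 3760208, had an FPKM of 65.8 in W and 201 in shade in whole hypocotyls, and of 1.79 in W and 8.29 in shade in peels. Both of its tissues were higher in shade. Its log2 folds were 1.61 ± 0.15 and 2.21 ± 0.46, with q = 0.000271 and q = 0.00912 in the authors' deposited tables.

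**Figure D3:**
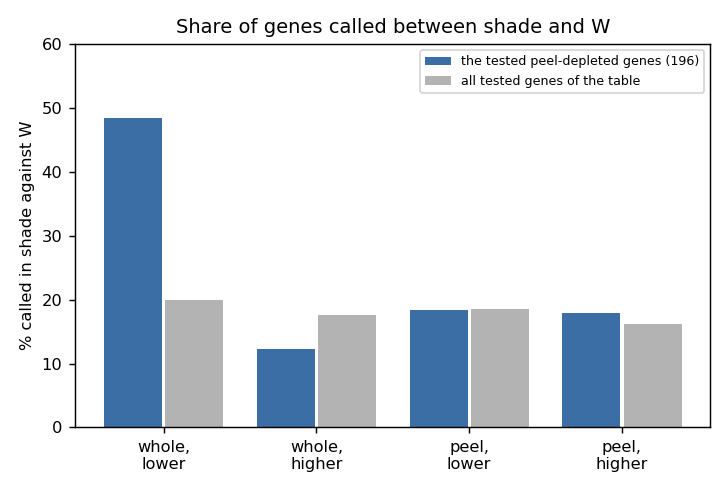
Percentage of tested genes called lower or higher in shade than in W, in whole hypocotyls and in peels; blue bars are the 196 tested members and grey bars all tested genes of the same table. In whole hypocotyls 48.5% of the members fell against 20.0% of all tested genes, and in peels 18.4% against 18.6%.

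In peels the members fell and rose about equally often. Of 196 tested members 36 fell in shade (18.4%) and 35 rose (17.9%), while 18.6% of all tested genes of that table were called lower and 16.2% higher. Among the genes past the FPKM minimums 17.6% were lower and 21.6% higher. The members' shares lie near these backgrounds, above the first and below the second for higher calls. The median log2(shade/W) of the 200 genes in peels was -0.06, with 102 genes below 0 and 98 above. The changes that were called were large. Their median was -1.75 for the members that fell and 1.77 for those that rose, against -0.95 and 0.81 for the passing genes called in peels. The peel levels are low, and the median standard error of the log2 fold over the tested members was 0.43 in peels against 0.17 in whole hypocotyls. Over the tested passing genes it was 0.22 in peels and 0.19 in whole hypocotyls. With a larger error only larger changes are called, and its part in the medians of the called members in peels was not tested. The smallest log2 change called among the members was 0.65 in peels and 0.39 in whole hypocotyls. In peels 21 tested members with a log2 fold beyond 1 in size were not called, while in whole hypocotyls 0 were. How far the lower peel levels set the difference between the tissues' counts was not tested.

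The furthest falls among members called in peels were those of Brara.K00964 and Brara.H01990. Brara.K00964, on Scaffold35100 from 64257 to 65401, had an FPKM of 35.5 in W and 1.65 in shade in peels, and of 267 in W and 258 in shade in whole hypocotyls. Its level in shaded peels was far below that of the other groups, and the whole-hypocotyl levels were close to each other. Its log2 fold was -4.42 ± 0.40 in peels with q = 0.000271, and -0.05 ± 0.14 in whole hypocotyls with q = 0.835, in the authors' deposited tables. Brara.H01990, on chromosome A08 from 18250162 to 18251252, had an FPKM of 17.4 in W and 1.68 in shade in peels, and of 133 in W and 38.1 in shade in whole hypocotyls. It was lower in shade in both tissues, by -3.38 ± 0.40 and -1.81 ± 0.17 on the log2 scale, with q = 0.000271 for each in the authors' deposited tables.

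The largest rises among members called in peels were those of Brara.I04240 and Brara.A01071. Brara.I04240, on chromosome A09 from 37608860 to 37609448, had an FPKM of 2.203 in W and 32.8 in shade in peels, and of 596 in W and 631 in shade in whole hypocotyls. Its whole-hypocotyl levels were close to each other while its peel levels were not, and its ratio of whole hypocotyl to peel was 271 in W and 19.2 in shade. Its log2 fold in peels was 3.90, with p = 0.001 and q = 0.00393 in the authors' deposited table. The authors' statistic for this gene was 3.35 times the size that its p implies, so no standard error is given. Brara.A01071, on chromosome A01 from 5639055 to 5640974, had an FPKM of 1.17 in W and 13.7 in shade in peels, and of 203 in W and 112 in shade in whole hypocotyls. Its tissues moved in opposite directions, by 3.55 ± 0.48 in peels and -0.86 ± 0.17 in whole hypocotyls, with q = 0.000271 for each in the authors' deposited tables.

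Across the tissues, 30 of the 196 tested members fell in both (15.3%) and 9 rose in both (4.59%), while 14.1% of the passing genes fell in both and 16.9% rose in both. The 30 are 31.6% of the members that fell in whole hypocotyls and 83.3% of those that fell in peels. Among the passing genes 2427 fell in both, of 3365 that fell in whole hypocotyls and 3040 that fell in peels. The 9 are 37.5% of the members that rose in whole hypocotyls and 25.7% of those that rose in peels. Among the passing genes 2919 rose in both, of 4002 that rose in whole hypocotyls and 3727 that rose in peels. A further 12 members fell in whole hypocotyls and rose in peels, with median log2 folds of -1.01 and 1.61, and 0 did the reverse. These are 6.12% of the members, beside 0.162% of the passing genes that fell in whole hypocotyls and rose in peels and 0.104% that did the reverse. Another 53 members fell in whole hypocotyls (27.0%) and 15 rose there (7.65%) without a call in peels, beside 5.27% and 6.17% of the passing genes. In peels 6 members fell (3.06%) and 14 rose (7.14%) without a call in whole hypocotyls, beside 3.44% and 4.52% of the passing genes. In neither tissue were 57 members called, 29.1% beside 49.4% of the passing genes. The difference between the tissues' shade responses is the same quantity as the difference of the ratios that chose the genes, and it was not tested for that reason.

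**Figure D4:**
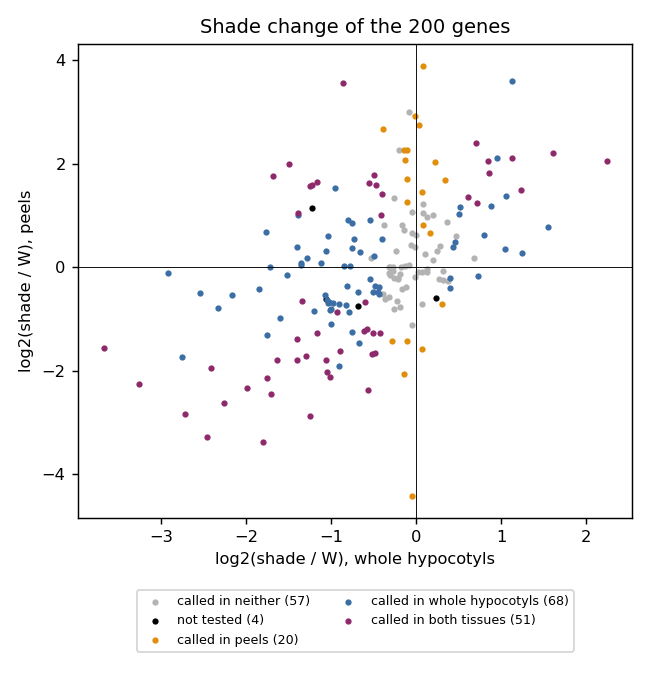
Log2(shade/W) in whole hypocotyls (x axis) and in peels (y axis) for each of the 200 genes, coloured by the tissues in which it was called. The 30 genes called lower in both tissues lie in the lower left quadrant. The 12 called lower in whole hypocotyls and higher in peels lie in the upper left. Both quadrants also hold genes that were not called in both tissues.

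The fall in whole hypocotyls was about as frequent at high as at low scores and more frequent among members abundant in W. The order by level uses the W value, by which the shade value is divided in log2(shade/W), so level and fall are not independent. The passing genes in the same ranges are given beside the members for that reason. In runs of 50 members by score, from the highest to the lowest, 24, 23, 24 and 24 members fell, out of 48, 48, 50 and 50 tested. Among the 50 members with the highest whole-hypocotyl level in W, from 125 to 4807 FPKM, 68.1% of tested members fell and 6.38% rose. Of all passing genes in that range of levels, 35.7% fell and 31.6% rose. In the next 50 by level 58.0% of members fell against 29.6% of passing genes in the same range, and in the 50 after those 44.0% fell against 26.7%. Among the 50 with the lowest level, from 11.9 to 32.4 FPKM, the shares were 24.5% and 19.8%. Of the members in that range 16.3% rose, against 21.0% of the passing genes. In peels these 50 had 0 members called lower and 2 called higher out of 49 by the authors' Cuffdiff test, and their median log2 fold was 0.0094. Of the passing genes in that range of whole-hypocotyl levels, which have other levels in peels, 17.7% were lower and 19.6% higher in peels. The rule itself limits how far these 50 members can fall or rise in peels, through the minimum of 1 FPKM and the high ratio required in both lights. Nothing is therefore read from the difference.

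**Figure D5:**
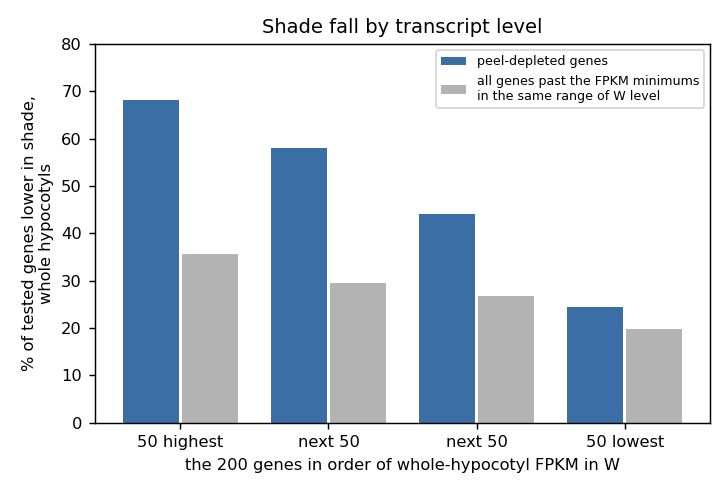
Percentage of tested genes that fell in shade in whole hypocotyls, for the 200 genes in runs of 50 ordered by their whole-hypocotyl FPKM in W (blue) and for all genes past the FPKM minimums in the same range of levels (grey). Blue bars run from 68.1% in the 50 most abundant to 24.5% in the 50 least abundant, and grey bars from 35.7% to 19.8%.

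The choices in the rule moved these shares. With the 400 highest scores in place of 200, 161 of the 394 tested genes (40.9%) fell in whole hypocotyls, against 48.5% of the tested members. With a minimum of 5 FPKM in peels in place of 1, 34.5% of the 194 tested among the resulting 200 genes fell and 24.7% rose in whole hypocotyls. Ranking by the ratio in W alone gave 9.74% lower and 27.2% higher in peels, and ranking in shade alone gave 26.5% lower and 14.3% higher there; both rankings were added after the data were seen.

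The members were spread over the genome. The 10 chromosomes A01 to A10 held 187 of them, from 11 on A08 to 29 on A09, or 0.806% of the passing genes on A08 to 1.43% of those on A07. Scaffolds held 13 members, 6.50% of the 200 against 3.97% of the passing genes. There were 3 pairs of members next to each other among the passing genes of a chromosome. In all 3 pairs the log2(shade/W) in whole hypocotyls was below 0 in both genes, as it was in 146 of the 200 members. The values ran from -1.34 and -0.95 in a pair on A02 to -0.012 and -0.089 in another pair on A02. Neither gene of the latter pair was called. Short loci were more frequent among the members: 10 of the 200 (5.00%) spanned under 300 bases against 0.631% of the passing genes, and the median span was 1901 bases against 2320. FPKM divides by a short length in such genes in every group, so fewer reads are needed to pass the FPKM minimums. The part of locus length in the choice of members was not tested.

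Correction for multiply mapped reads left the depletion of the members almost as it was. The authors' corrected tables list 188 of the 200. In these the score differed from the uncorrected one by -0.076 to 0.061. The 12 members not listed there are 6% of the 200 against 1.73% of the passing genes, and 7 of the 12 span under 500 bases. With the correction, 92 of 188 tested members fell in shade in whole hypocotyls and 24 rose, and in peels 36 fell and 37 rose.

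A set of 200 genes chosen by the mirrored rule, with the largest ratio of peel to whole hypocotyl, gives the values for the opposite tissue pattern. Of its 195 tested genes 12.8% fell and 17.4% rose in shade in whole hypocotyls, and 21.0% fell and 21.0% rose in peels. Its median log2(shade/W) was 0.11 in whole hypocotyls and 0.04 in peels, beside -0.39 and -0.06 for the peel-depleted genes. The mirrored set is less extreme in its tissue ratio. Its median log2(whole/peel) was -2.43 in W and -2.48 in shade, beside 4.19 and 3.60 for the peel-depleted genes. The difference between the sets in shade response was not tested.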

How the data were processed

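RNA of 12 Brassica libraries, 3 per group, was read as stranded polyadenylated libraries of single-end 50-base reads, per the labels' protocols. Per the submitters' processing notes, the authors used CASAVA 1.8.2, TopHat2 2.0.9, Bowtie2 2.1.0, Cufflinks and Cuffdiff. Neither the Brassica assembly nor the versions of Cufflinks and Cuffdiff are named in those notes. The FPKM values are the authors' own, per the file headers 1 per gene and group. The Cuffdiff test statistic is a score deposited by the authors and is not the ranking score of the report, and the p-value and q-value are those the authors deposited; the smallest p is 5e-05. Values per library are not used here.

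The 200 members were taken from the uncorrected Brassica tables of peels against whole hypocotyls in W and in shade, with Python 3.11.15 and pandas 2.3.3. The shade calls came from the uncorrected tables of shade against W in each tissue. The members, the lists and the tests were chosen with earlier results of these data known. Log2 folds are ratios of group FPKM without a pseudocount. A standard error is the size of the log2 fold divided by that statistic and multiplied by a factor, which is the median over genes with p from 0.001 to 0.5 of the statistic divided by the z value of p. That factor was 0.670 in whole hypocotyls and 0.758 in peels. For members whose p exceeds the smallest one, the statistic exceeded 2 times the size implied by p in 8 of 117 in whole hypocotyls and 15 of 172 in peels, so some standard errors are too small, and at the smallest p this could not be checked. Calls use q under 0.05 across the whole table. Starts of loci were raised by 1, because in an Arabidopsis table of the series 41.5% of 25738 loci started 1 base before the RefSeq TAIR10.1 gene and 0.412% started at it. The steps of selection and calling were run on simulated data with lower FPKM minimums and with q-values set in advance. That run checked the steps and not the authors' test.

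The naming rule was the 10 highest scores, the genes at the limit, the largest called shade changes and the most abundant members. As no source used here pairs Brara identifiers with names, at most 2 identifiers per direction are printed for a comparison, and marker lists by Arabidopsis locus could not be applied. No Brassica sequence is shown. Alternatives were a q under 0.01, the corrected tables, 100 or 400 members, other FPKM minimums, a pseudocount of 1, the mean of both ratios, and, added after seeing the data, ranking in 1 light.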

Additional observations from a re-analysis of the deposited data

How the results depend on the processing

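The share of tested members that fell in shade in whole hypocotyls was within 1.5 times of the reported 48.5% under all 8 alternatives, from 34.5% to 50.3%. With at least 5 FPKM in peels, the share that rose there was 24.7% and the median log2 fold was -0.075. That median was -0.27 with 400 members and -0.27 with ranking in shade alone. In peels, ranking in W alone gave 9.74% lower, 27.2% higher and a median of 0.46, and ranking in shade alone gave a median of -0.23. Ranking in 1 light uses the peel value of that light, which also enters log2(shade/W) in peels. The cause of these shifts was not tested. With any peel value above 0 the rule kept 30 of the 200 genes, since genes under 1 FPKM in peels then entered. It kept 180 with the mean of both ratios, 183 with a pseudocount of 1 and 188 in the corrected tables. No paired analysis was possible because the tables hold 1 pooled value per group, and leaving out a library was not possible for the same reason. Depth per library is unknown, and its part in the calls was not tested.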

Other observations

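One assembled locus without a Brara identifier carries the name of a member in the tables. Its FPKM was 90.8 in whole hypocotyls in W and 43.5 in whole hypocotyls in shade, against 2.16 in peels in W and 3.26 in peels in shade. The locus was lower in peels in both lights. It was looked up because it carries a member's name, so this is not independent of the choice of genes. The 367 genes that were not members but lay next to one among the passing genes of a chromosome had a median score of 0.02, beside -0.03 over all passing genes.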
